A study of Mus musculus with 4 samples.

Results

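Collagens are the trimeric, glycine-rich proteins that give tissues their tensile frame, and the transcripts of their chains were examined in normal ureter and in ureter tumors of the mouse. Members were the probe sets that the platform annotation gives to a single gene named Col, a type number, a and a chain number. There were 82 of them among the 45101 probe sets of the array, and they read 42 genes among 18193. Expression was measured in 2 normal ureter samples and 2 ureter tumor samples of C57Bl/6 mice aged 6 to 8 weeks, with 1 Affymetrix mouse expression array for each. Per the labels' protocols, ureter epithelium was isolated, and R26rtTA;teto-Cre;Ncstnf/f mice were given doxycycline from 3 weeks of age, over 1 week. In this system doxycycline switches on the Cre recombinase, which removes a conditional part of Ncstn, a gene needed for Notch signaling. The R26 locus is active in most tissues, so the switch is not specific to urothelium. The same treatment text stands on normal and tumor samples, and no label gives the genotype of a single sample or says whether animals were pooled. The study asked what Notch signaling does in cancer of the urothelium, the epithelium lining the urinary tract.

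Fibrillar collagens (types I, II, III, V, XI, XXIV and XXVII) assemble into the cross-striated cables of the stroma, with types I and III as the bulk and types V and XI controlling how fibrils start and how thick they become. Basement membrane collagens form the sheet under epithelia and around vessels and muscle cells: type IV is its network, type VII anchors it to the stroma, type XVII spans the membrane of basal epithelial cells in hemidesmosomes, and types XV and XVIII carry glycosaminoglycan chains and hold peptides that act on vessels. The remaining types include the beaded filaments of type VI, the short-chain networks of types VIII and X, the chains that sit on fibril surfaces (the FACIT types, such as XII, XIV and XVI) and the transmembrane types XIII, XXIII and XXV. Most of these chains are made by fibroblasts and other stromal cells, while type XVII and part of type IV and type VII come from epithelium.

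Upstream sequences are shown for 8 genes, because their transcripts set out the patterns described next. Col1a2 and Col3a1 are major fibrillar chains, Col6a1, Col6a2, Col7a1 and Col17a1 were highest on 1 tumor array, and Col18a1 and Col8a1 were highest on the other. Each sequence is the 250 bases before a RefSeq start in GRCm38.p6, the outermost for the gene, printed 5′ to 3′ along the gene's strand. Capitals mark matches, on either strand, to the CCAAT box, the TATA box written TATAAA, the GC box written GGGCGG and the related GGGAGG. Matches that overlap run together and were counted separately. Col6a2 and Col18a1 each have a second start site, not printed, with other matches. The positions are chr6:4505368-4505617 (plus strand) for Col1a2, chr1:45311288-45311537 (plus strand) for Col3a1, chr10:76726045-76726294 (minus strand) for Col6a1 and chr10:76623631-76623880 (minus strand) for Col6a2. They are chr9:108953336-108953585 (plus strand) for Col7a1, chr19:47692043-47692292 (minus strand) for Col17a1, chr10:77166531-77166780 (minus strand) for Col18a1 and chr16:57754738-57754987 (minus strand) for Col8a1.
Col1a2: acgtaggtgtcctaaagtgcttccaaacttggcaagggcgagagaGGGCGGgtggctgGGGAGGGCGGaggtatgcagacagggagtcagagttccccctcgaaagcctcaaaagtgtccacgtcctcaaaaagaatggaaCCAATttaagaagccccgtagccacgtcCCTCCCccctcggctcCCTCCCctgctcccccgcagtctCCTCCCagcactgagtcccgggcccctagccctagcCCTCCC
Col3a1: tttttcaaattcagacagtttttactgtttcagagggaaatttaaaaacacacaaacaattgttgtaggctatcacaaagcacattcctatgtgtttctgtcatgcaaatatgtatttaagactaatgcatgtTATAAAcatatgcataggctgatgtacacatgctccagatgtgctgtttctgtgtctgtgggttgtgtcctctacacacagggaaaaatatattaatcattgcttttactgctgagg
Col6a1: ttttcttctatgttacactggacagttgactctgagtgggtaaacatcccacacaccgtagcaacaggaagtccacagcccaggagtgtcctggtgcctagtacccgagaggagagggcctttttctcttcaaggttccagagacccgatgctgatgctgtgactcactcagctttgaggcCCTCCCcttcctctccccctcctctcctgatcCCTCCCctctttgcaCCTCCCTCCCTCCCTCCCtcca
Col6a2: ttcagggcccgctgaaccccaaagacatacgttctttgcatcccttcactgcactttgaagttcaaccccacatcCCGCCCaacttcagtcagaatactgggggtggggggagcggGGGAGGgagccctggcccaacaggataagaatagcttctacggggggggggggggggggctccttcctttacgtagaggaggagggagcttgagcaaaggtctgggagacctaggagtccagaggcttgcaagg
Col7a1: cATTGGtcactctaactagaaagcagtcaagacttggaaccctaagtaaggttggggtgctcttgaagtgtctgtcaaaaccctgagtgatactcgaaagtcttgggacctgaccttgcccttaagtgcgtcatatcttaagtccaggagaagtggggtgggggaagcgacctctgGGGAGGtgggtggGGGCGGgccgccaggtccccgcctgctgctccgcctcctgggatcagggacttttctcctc
Col17a1: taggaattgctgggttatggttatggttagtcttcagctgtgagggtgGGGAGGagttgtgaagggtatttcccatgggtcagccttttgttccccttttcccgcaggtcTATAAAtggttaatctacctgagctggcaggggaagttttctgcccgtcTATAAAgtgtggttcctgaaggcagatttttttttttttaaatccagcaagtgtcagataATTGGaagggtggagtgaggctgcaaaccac
Col18a1: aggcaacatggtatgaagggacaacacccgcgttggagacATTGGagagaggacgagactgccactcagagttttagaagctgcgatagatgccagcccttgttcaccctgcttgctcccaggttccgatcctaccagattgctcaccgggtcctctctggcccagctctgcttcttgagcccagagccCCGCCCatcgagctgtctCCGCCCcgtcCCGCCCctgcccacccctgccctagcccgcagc
Col8a1: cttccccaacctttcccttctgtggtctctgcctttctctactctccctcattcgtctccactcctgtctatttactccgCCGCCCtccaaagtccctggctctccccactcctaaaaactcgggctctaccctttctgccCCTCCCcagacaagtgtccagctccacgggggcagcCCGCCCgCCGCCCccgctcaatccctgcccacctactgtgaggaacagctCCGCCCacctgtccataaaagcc
A promoter entry was found for 33 of the 42 genes, with 36 start sites. GGGAGG lay in the 250 bases before 26 of these sites (72.2%), against 38.0% of all 32851 start sites in the table. The GC box lay before 21 of them (58.3%, against 32.7%), CCAAT before 13 (36.1%, against 33.8%) and the TATA box before 5 (13.9%, against 12.4%). Before Col1a2 there were 5 matches to GGGAGG, 2 to the GC box and 1 to CCAAT, while Col3a1 had 1 match to the TATA box and none to the other motifs. Col6a1 had 6 matches to GGGAGG, and Col8a1 had 4 to the GC box. These matches describe letters in a window and were not tested against the expression values.

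The arrays themselves differed in ways that touch every result. The normal arrays resembled each other (Pearson's r = 0.976 across the 13046 genes tested, which are not independent replicates) more than the tumor arrays did (r = 0.786). Tumor replicate 2 was closer to each normal array (r = 0.824 and 0.827) than to tumor replicate 1. For Gapdh the 3' probe set over the 5' probe set, a sign of RNA breakdown when high, came to 0.920 and 0.923 in normal ureter and to 1.51 and 1.44 in tumor. For Actb the same ratio went the other way, at 2.90 and 2.82 in normal ureter and 2.47 and 2.63 in tumor. Uroplakin genes, which define urothelium, were present in normal ureter (Upk1b at 11549 and 19745), and so were fat, kidney and smooth muscle genes, although the labels speak of epithelium. The summed signal of 5 fat genes was 240981 and 257884 in normal ureter against 35471 and 6086 in tumor, and that of 6 smooth muscle genes was 13296 and 10429 against 2592 and 2144. Kidney genes summed to 9267 and 15977 in normal ureter, 1369 on tumor replicate 1 and 89470 on tumor replicate 2. Immune genes were higher in tumor: 4 macrophage genes summed to 8019 and 6522 in normal ureter and 32112 and 24233 in tumor (1 of 4 rose), and 4 plasma cell genes to 19191 and 15897 against 147815 and 126101 (2 of 4 rose). Of 3 T cell, 1 Schwann cell and 2 skeletal muscle genes tested, 0 passed. Across all 13046 genes tested 0.491% rose and 0.943% fell. The part of these tissues in the collagen values was not tested. In such bulk samples fewer cells of a type and less RNA per cell cannot be told apart.

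Collagen transcripts were more often higher than lower in the tumors, but only Col12a1 passed the test. Of the 42 genes, 28 reached the signal limit for testing, a mean signal of 54.6, and 14 did not. Among the 28, 1 rose, 0 fell and 27 did not pass limma at a Benjamini-Hochberg adjusted p under 0.05, where 1.43% of all genes tested were called, 0.491% higher and 0.943% lower. At an unadjusted p under 0.05, 5 were higher and 2 lower, where 10.6% and 10.9% of all genes were. The difference was above 0 in 21 and below 0 in 7, against 6753 and 6293 of all 13046 genes tested. Both tumor values exceeded both normal values for 11 of the 28 genes (39.3%), against 29.4% of all genes, and both lay under them for 2 (7.14%), against 27.7%. The median difference, tumor minus normal on the scale log2(signal + 16), was 0.58 over the 28 genes and 0.43 over all 42, beside 0.03 over all genes tested and 0.004 over all genes measured. No test was made of the list as a whole.

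**Figure D1:**
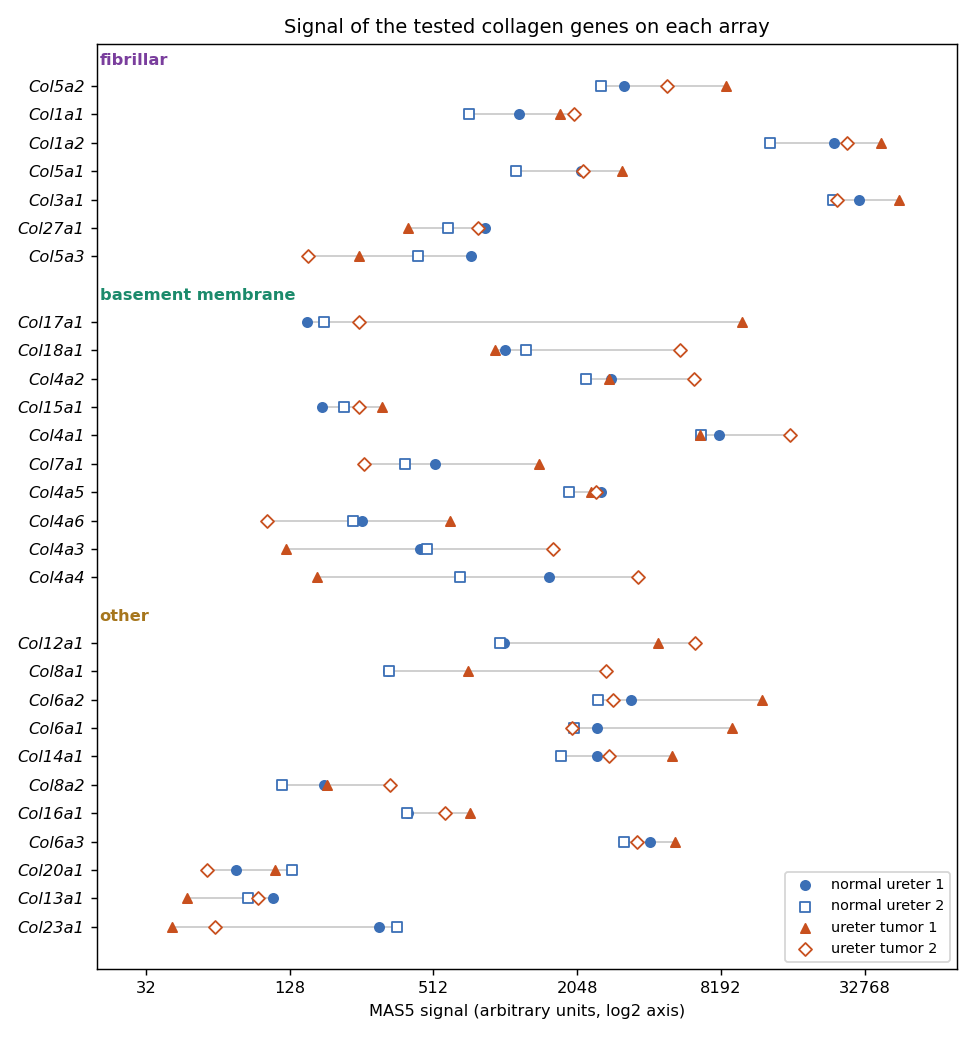
MAS5 signal on each array (log2 axis, arbitrary units) for the 28 collagen genes tested, ordered within each group by the difference between tumor and normal means. Blue marks are the 2 normal arrays and orange marks the 2 tumor arrays, filled for replicate 1 and open for replicate 2; Col12a1 stands at 4450.0 and 6376 in tumor against 1009 and 975 in normal ureter, and the longest grey line is that of Col17a1.

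Col12a1, which encodes a chain that coats the surface of type I fibrils, rose in the tumors. Its brightest probe set gave signals of 1009 and 975 in normal ureter and 4450.0 and 6376 in tumor. Both tumor values lay far above the normal pair, which differed by little. The log2 difference came to 2.41 (limma adjusted p = 0.0441, SE 0.24, n = 2 per group), a 5.30-fold rise from 992 ± 24.4 to 5413 ± 1362 (SD, n = 2). A second probe set of the gene had signals of 102 and 98.1 in normal ureter and 354 and 590 in tumor, a difference of 2.03. Its other 2 probe sets lay under the limit. The call ended without normal replicate 1 or normal replicate 2 (adjusted p = 0.643 and 0.655), with median centring (0.0501), without the intensity trend (0.0666) and with the probe sets averaged (0.128, difference 1.36). With a replicate block, which fits equal replicate numbers as pairs, the limma adjusted p was 0.113. The difference itself stayed between 2.15 and 2.67 when any single array was left out.

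Among the fibrillar chains, types I and V leaned upward except for Col5a3, and none passed. Of the 11 genes 7 were tested. Both tumor values exceeded both normal values for 4 of them (57.1%) and lay under them for 1 (14.3%), against 29.4% and 27.7% of all genes tested. The median difference was 0.74 over the tested genes and over all 11. It was 0.91 on tumor replicate 1 and 0.47 on tumor replicate 2, and it became 1.19 without normal replicate 1 and 0.29 without normal replicate 2. No gene of this group was 4-fold apart between the tumor arrays.

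The type I chains form the trimer that makes up most of the fibrils of connective tissue. Col1a1 gave 1165 and 723 in normal ureter and 1740.2 and 1979 in tumor, with no overlap (difference 1.00, SE 0.30, n = 2 per group, limma adjusted p = 0.178). Its partner Col1a2 gave 24309.5 and 13135 in normal ureter and 38172 and 27610.0 in tumor (difference 0.86, SE 0.41, adjusted p = 0.316). The normal arrays of Col1a2 were themselves 0.89 log2 units apart, about as far as the groups were. A further probe set of Col1a1 and one of Col1a2 gave 0.92 and 1.01 with the groups apart. The third probe set of Col1a2 had signals of 68.1 to 104 and a difference of 0.03.

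Col3a1, the chain of the type III homotrimer of young and elastic tissue, overlapped between the groups. Its signals were 30963 and 24170.5 in normal ureter and 45631 and 24943.5 in tumor (difference 0.30, SE 0.40, limma adjusted p = 0.702, n = 2 per group). On tumor replicate 2 alone the difference was -0.13. A dimmer probe set of Col3a1 did not overlap, at 2291 and 1783 against 3673 and 2784 (difference 0.66). Col5a2 is the neighbour of Col3a1 on chromosome 1, with 0 protein-coding genes between them in RefSeq. It gave 3222.5 and 2578.5 in normal ureter and 8556 and 4876 in tumor, with no overlap (difference 1.16, SE 0.34, adjusted p = 0.178). Its second probe set gave 1.22.

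The 3 type V chains, which enter the core of type I fibrils, did not all point 1 way. Col5a1 lay higher in tumor (2125 and 1135 against 3155 and 2155, difference 0.74, SE 0.40, limma adjusted p = 0.366, n = 2 per group), although its second brightest probe set gave only 0.07. Col5a3 lay lower, at 737 and 440.4 in normal ureter and 250.1 and 153 in tumor. The groups did not overlap, and the difference was -1.47 (SE 0.41, adjusted p = 0.171), the smallest p of the fibrillar group. The brightest probe sets of Col5a1 and Col5a3 pointed opposite ways on both tumor arrays, at 1.01 and 0.47 for Col5a1 and -1.14 and -1.79 for Col5a3. The second brightest of Col5a1 overlapped between the groups, at 716 and 482 in normal ureter and 707 and 541 in tumor. The difference between these chains was not tested. Col27a1, a fibrillar chain of cartilage and other tissues, overlapped between the groups, with a difference of -0.31 (adjusted p = 0.712) and 0.16 on tumor replicate 2 alone.

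The other 4 fibrillar genes were under the limit. Col2a1, the main chain of cartilage, was at 4.30 to 7.54 on all arrays, and Col11a2 was at 4.70 to 53.0. Of 6 cartilage and bone markers measured, Acan, Matn1, Matn3 and Ibsp were under the limit too. Col24a1 and Col11a1 were dim in normal ureter and brighter in tumor. Col24a1 had signals of 25.4 and 27.8 in normal ureter and 175 and 55.0 in tumor, and Col11a1 had 22.2 and 40.7 against 47.6 and 123. A second probe set of Col11a1 gave 33.8 and 29.7 against 23.3 and 196, so its groups overlapped. Signals this low carry no detection call here and were not tested.

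The basement membrane group was marked by disagreement between the tumor arrays. All 10 genes were tested and 0 passed limma, with 0 at an unadjusted p under 0.05. The tumor arrays were at least 4-fold apart for 6 of the 10 genes, against 8.52% of all genes tested, and the normal arrays for 0, against 0.376%. Over all 28 collagens the tumor arrays were 4-fold apart for 8 (28.6%), the further genes being Col6a1 and Col6a2. The median difference of the group was 0.46, with 0.11 for the first tumor and 0.84 for the second. Over the 6 type IV genes alone it was 0.08, with -0.03 and 1.21. Each tumor is therefore given separately for these genes.

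**Figure D2:**
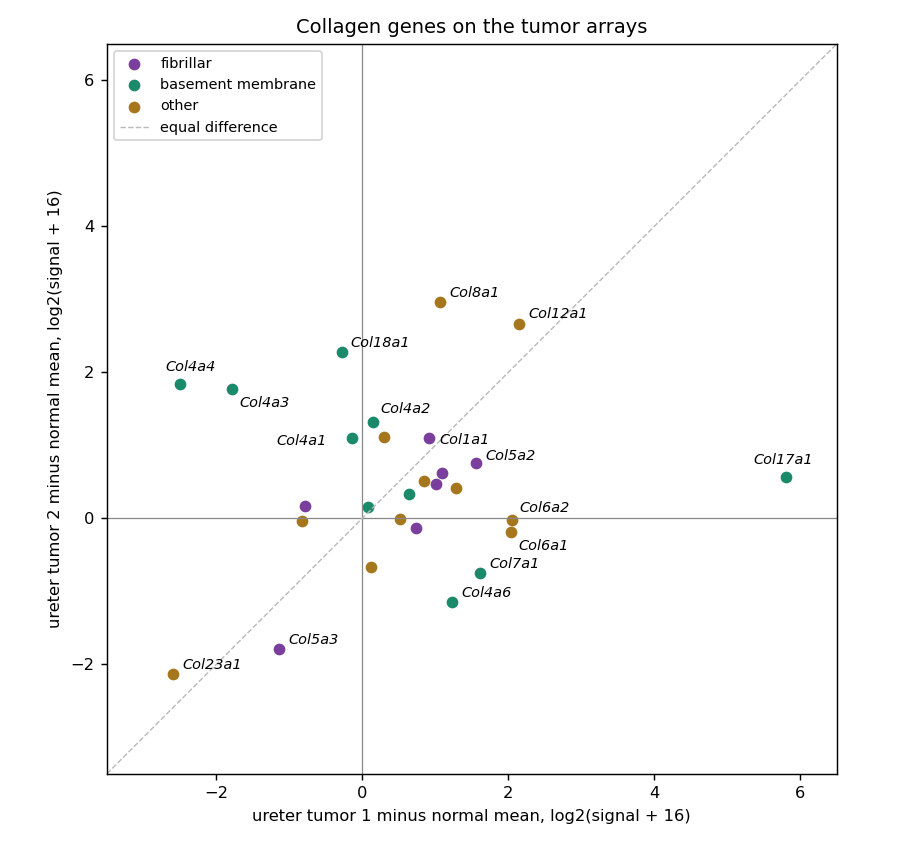
Difference from the normal mean on the scale log2(signal + 16) for the 28 collagen genes tested, on tumor replicate 1 (horizontal axis) and tumor replicate 2 (vertical axis), coloured by group; the dashed line marks equal differences. Col12a1 and Col23a1 lie near the line, Col17a1 lies far to the right at 5.81 and 0.57, and Col4a3 and Col4a4 lie in the upper left, lower on replicate 1 and higher on replicate 2.

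Col17a1 and Col7a1, whose proteins fasten basal epithelial cells to the stroma, were high on tumor replicate 1. Col17a1 gave 151 and 177.5 in normal ureter, 10036.5 on tumor replicate 1 and 251 on tumor replicate 2. Its difference of 3.19 had an SE of 1.84 (n = 2 per group, limma adjusted p = 0.392) and came to 5.81 on tumor replicate 1 and 0.57 on tumor replicate 2. This was the widest gap between the tumor arrays of any collagen gene tested. Col7a1 gave 520.5 and 390.4 in normal ureter, 1418.5 on tumor replicate 1 and 262 on tumor replicate 2 (difference 0.44, adjusted p = 0.806, and -0.75 on replicate 2 alone). Both chains lay above the normal pair on replicate 1, and on replicate 2 only Col17a1 did.

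Genes of basal urothelium had the same order in tumor, and so did other genes. The urothelial genes Upk2, Krt7, Upk1b, Krt20 and Upk3a had gaps, replicate 1 minus replicate 2, of 1.57, 1.52, 1.18, 0.55 and 0.33. Upk1a and Krt8 went the other way, at -1.50 and -0.64. Of the fibroblast genes only Pdgfrb went the other way, at -0.84. Krt14, a keratin of basal and squamous cells, gave 367 and 383 in normal ureter, 16714.5 on tumor replicate 1 and 1088 on tumor replicate 2. Krt5, a further basal gene, gave 3414.5 and 5518 in normal ureter, 15779.7 on replicate 1 and 628 on replicate 2. Trp63, another, gave 2446 and 3847 in normal ureter, 10167 on replicate 1 and 440.3 on replicate 2. On replicate 2 Krt5 and Trp63 lay under the normal pair, like Col7a1, while Krt14 and Col17a1 lay above it. The 10 urothelial markers summed to 53329 and 87395 in normal ureter, 70322.5 on tumor replicate 1 and 21046 on tumor replicate 2. On replicate 1 the brightest of them were Krt7 (19322), Krt14 and Krt5. The 3 genes of this list that fell were low on both tumor arrays. Upk1b went from 11549 and 19745 in normal ureter to 434 and 183 in tumor. Upk3a went from 5987 and 11462.5 to 69.8 and 52.3, and Krt20 from 3424 and 6514 to 172 and 113. The part of urothelial cells in the values of Col17a1 and Col7a1 was not tested.

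The type IV genes stand as 3 neighbouring pairs in the genome, and in 2 of the pairs both genes had the same order on the tumor arrays. Col4a1 and Col4a2 encode the chains found in nearly all basement membranes and adjoin on chromosome 8 with overlapping spans. Their 300-base promoter windows share 78 bases and run on opposite strands. A stretch of 30 bases shows the CCAAT match, in capitals, that begins 32 bases before the RefSeq start of Col4a2 (GRCm38.p6, chr8:11312761-11312790, plus strand).
Col4a2: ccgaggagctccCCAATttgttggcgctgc
Col4a1 gave 8066 and 6752 in normal ureter, 6692 on tumor replicate 1 and 15868 on tumor replicate 2. Col4a2 gave 2829.6 and 2226 in normal ureter, 2784 on tumor replicate 1 and 6300.0 on tumor replicate 2. Both were within or near the normal range on the first tumor and above it on the second. A dimmer probe set of Col4a1 lay above the normal values of 828.5 and 833 on both tumors, at 989.7 and 1841.5. The tumor arrays stood at -1.24 and -1.17 log2 units, replicate 1 minus replicate 2, for Col4a1 and Col4a2, and the differences between groups were 0.48 and 0.74 (limma adjusted p = 0.603 and 0.42, n = 2 per group).

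Col4a3 and Col4a4 encode chains of the glomerular and some other specialised basement membranes, and they too adjoin, on chromosome 1. Col4a3 gave 448 and 479.8 in normal ureter, 123 on tumor replicate 1 and 1625 on tumor replicate 2. Col4a4 gave 1555 and 664 in normal ureter, 167 on tumor replicate 1 and 3689 on tumor replicate 2. For both, the first tumor lay below and the second above the normal pair. The gap between the tumor arrays, replicate 1 minus replicate 2, was -3.56 for Col4a3 and -4.34 for Col4a4. The differences between groups were -0.01 and -0.33 (SE 1.26 and 1.58, n = 2 per group, limma adjusted p = 0.999 and 0.926), and that of Col4a3 turned positive, to 0.022, 0.19 and 0.091, under quantile normalization, median centring and a pseudocount of 64. The further probe set of Col4a3 and both of those of Col4a4 had the same order, with gaps of -4.88, -3.91 and -3.07.

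Kidney genes followed that order. Umod, a product of the thick ascending limb, gave 4997 and 9982 in normal ureter, 1268 on tumor replicate 1 and 57258 on tumor replicate 2. Slc12a1, the sodium transporter of the same segment, gave 1348 and 2615 in normal ureter, 34.7 on tumor replicate 1 and 23388 on tumor replicate 2. All 4 kidney markers, with Slc34a1 and Lrp2, lay highest on tumor replicate 2 and lowest on tumor replicate 1. The part of kidney tissue in the values of Col4a3 and Col4a4 was not tested.

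**Figure D3:**
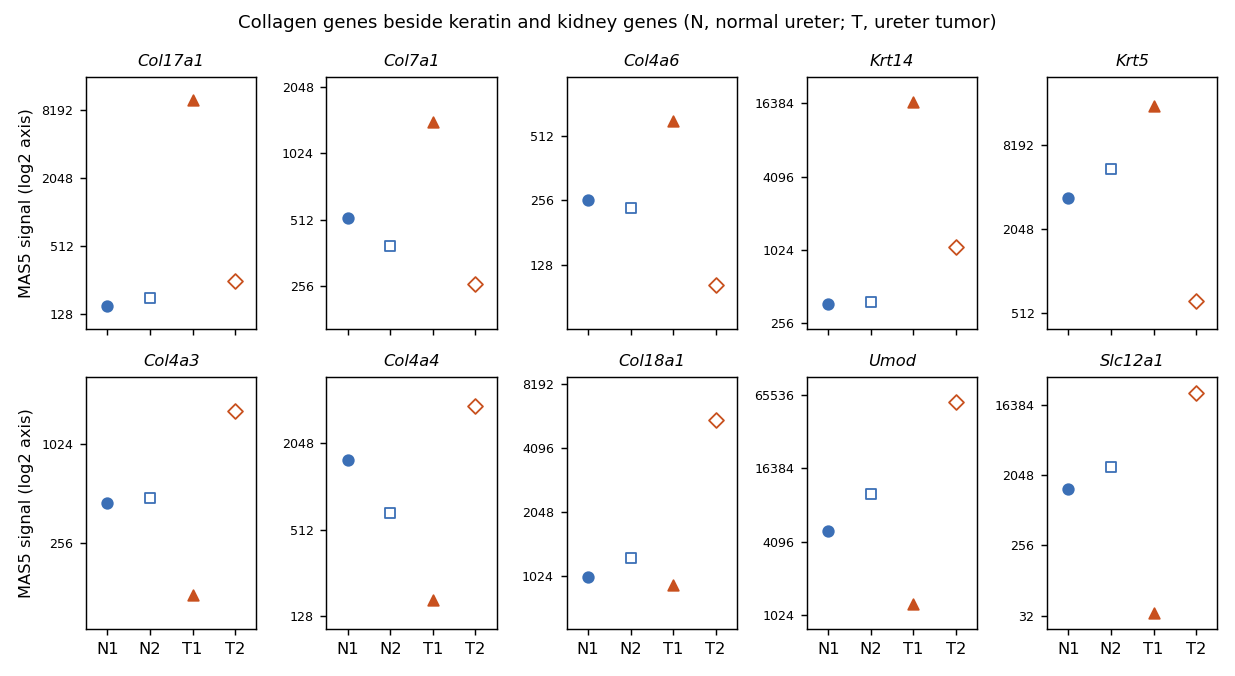
MAS5 signal on each array (log2 axes, a scale of its own for each gene) for Col17a1, Col7a1 and Col4a6 beside the keratins Krt14 and Krt5 (top), and for Col4a3, Col4a4 and Col18a1 beside the kidney genes Umod and Slc12a1 (bottom). N1 and N2 are normal ureter, T1 and T2 ureter tumor; the top row is highest on T1 and the bottom row highest on T2, at 10036.5 for Col17a1 and 3689 for Col4a4.

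The third pair, Col4a5 and Col4a6 on the X chromosome, went apart. These chains can join in the basement membranes of smooth muscle and bladder. Col4a5 was nearly level, with 2584 and 1896 in normal ureter and 2338 and 2464 in tumor (difference 0.12, SE 0.22, limma adjusted p = 0.802, n = 2 per group). Its dimmer probe set pointed the other way at -0.46, with both tumor values of 429 and 423.5 under the normal values of 707 and 496, and the mean of its probe sets gave -0.17. Col4a6 gave 257 and 236 in normal ureter, 601 on tumor replicate 1 and 103 on tumor replicate 2. Its order was that of Col7a1 and Col17a1, high on replicate 1, and the gap between the tumor arrays was 2.38 for Col4a6 beside -0.07 for Col4a5. The second probe set of Col4a6 gave a gap of 1.63.

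The multiplexins, which carry glycosaminoglycans and release the peptides restin and endostatin, differed from each other. Col15a1 was higher on both tumor arrays, at 175 and 216 against 313 and 249 (difference 0.49, SE 0.30, limma adjusted p = 0.413, n = 2 per group). Col18a1 gave 1021 and 1251.5 in normal ureter, 927.5 on tumor replicate 1 and 5532 on tumor replicate 2. Its difference of 1.00 (SE 0.91, adjusted p = 0.576) was carried by replicate 2 at 2.27, with -0.28 on replicate 1. The second probe set of Col18a1 repeated this order, with 769 and 917 against 770.1 and 3466. The summed signal of 6 endothelial genes was 7100.2 and 6000.3 in normal ureter and 6047 and 5595 in tumor. The list was divided between the tumor arrays. Emcn, Tek and Kdr were higher on replicate 2, with gaps, replicate 1 minus replicate 2, of -0.95, -0.91 and -0.28. Pecam1, Cdh5 and Vwf were higher on replicate 1, with gaps of 1.35, 0.29 and 2.26. Their part in the values of Col18a1 was not tested.

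The remaining collagen types held the only rise and the largest negative difference, with 11 of 21 genes tested. Of these 1 rose, 0 fell and 10 did not pass. Both tumor values exceeded both normal values for 5 (45.5%) and lay under them for 1 (9.09%), against 29.4% and 27.7% of all genes tested. The median difference was 0.71 over the tested genes and 0.38 over all 21, and it was 0.85 on tumor replicate 1 and -0.01 on tumor replicate 2. Fibril-surface chains other than Col12a1 were Col14a1, Col16a1 and Col20a1. Col14a1, a chain of dense connective tissue, gave 2479 and 1754 in normal ureter and 5089 and 2794 in tumor (difference 0.85, SE 0.38, n = 2 per group, limma adjusted p = 0.298). Col16a1 gave 400.4 and 397 in normal ureter and 731.5 and 573 in tumor, with a difference of 0.68 (SE 0.24, adjusted p = 0.224). The normal values of Col16a1 were nearly equal and both tumor values were higher, yet its adjusted p was far from the threshold. Col20a1 was dim, at 57.7 to 131.5, and overlapped.

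Col23a1, a transmembrane collagen, had the lowest difference of all collagens tested. It gave 302 and 359 in normal ureter and 41.1 and 62.6 in tumor. Both tumor values were far under the normal pair, a difference of -2.36 (limma adjusted p = 0.0729, SE 0.35, n = 2 per group). It did not pass the test under any alternative that kept all 4 arrays and gave it a value, with adjusted p from 0.0583 to 0.153. Its mean of 51.9 in tumor was under the limit of 54.6, so it entered the test through normal ureter alone, the only collagen tested with a group mean under the limit. Adjusted p was 0.663 and 0.697 without normal replicate 1 or normal replicate 2, and 0.000223 and 3.04e-05 without tumor replicate 1 or tumor replicate 2, fits in which the lone array is assumed to vary like the others. Over the arrays left out, the difference stayed between -2.59 and -2.13. Its further probe sets gave -2.42 and -1.54, also without overlap. Col13a1, another transmembrane chain, found at cell adhesions, overlapped at 109 and 85.7 against 47.4 and 94.4 (difference -0.43, adjusted p = 0.625).

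The short-chain type VIII, a product of vessel walls and of injured tissue, was higher on both tumor arrays. Col8a1 gave 330.1 and 335 in normal ureter, 716 on tumor replicate 1 and 2699.7 on tumor replicate 2. The difference came to 2.02 (limma adjusted p = 0.212, SE 0.69, n = 2 per group), with 1.07 and 2.96 in tumor. A dimmer probe set overlapped between groups at 214 and 112 against 194 and 786. Its partner Col8a2 gave 179 and 119 against 184 and 337 (difference 0.71, adjusted p = 0.416). Both chains were higher on replicate 2 than on replicate 1. Col10a1, the short-chain collagen of growth-plate cartilage, was under the limit at 1.24 to 25.4.

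Type VI, which forms beaded filaments close to cells, split between its chains on tumor replicate 1. Col6a1 and Col6a2, neighbours on chromosome 10, were high on that array, at 9129 and 12157, against 2480.3 and 1977 for Col6a1 and 3444 and 2491 for Col6a2 in normal ureter. On tumor replicate 2 they were at 1951 and 2894, within or next to the normal range. Col6a3, which supplies the third chain of the classical heterotrimer, stayed within narrow bounds at 4147.5 and 3207 in normal ureter and 5231 and 3626 in tumor. The gaps between the tumor arrays were 2.22 and 2.07 for Col6a1 and Col6a2 and 0.53 for Col6a3, and the further probe set of Col6a2 gave 2.03. Differences between groups were 0.93, 1.01 and 0.255 for Col6a1, Col6a2 and Col6a3 (limma adjusted p = 0.553, 0.494 and 0.637, n = 2 per group), and without tumor replicate 1 they were -0.18, -0.02 and -0.01. The chains Col6a4 and Col6a5 were under the limit.

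Across the 14 genes under the limit the signals of the brightest probe set ran from 1.24 to 175. They were Col2a1, Col11a1, Col11a2, Col24a1, Col6a4, Col6a5, Col10a1, Col9a1, Col9a2, Col9a3, Col19a1, Col22a1, Col25a1 and Col26a1. All 3 type IX chains, which coat cartilage fibrils, were among them, at 1.74 to 58.8. Col6a4 had 41.9 and 3.47 in normal ureter and 102 and 98.7 in tumor. A second probe set of Col6a4 pointed the other way and overlapped, at 66.2 and 7.37 against 24.1 and 7.95. Col26a1 ran from 3.22 to 95.6 with both extremes in tumor. Among the 17 genes with several probe sets at or above the limit, 2 of 21 further probe sets pointed the other way from the brightest, for Col4a4 and Col4a5.

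Genes that fold, cut, cross-link and bind collagen gave 1 rise, 1 fall and 53 not past the test among 55 tested. Of all genes tested, 0.491% rose and 0.943% fell. Of the 65 listed, 59 were measured, and Fkbp10, Adamts2, Adamts14, Loxl2, Fbn1 and Itga11 were not analysed here. At an unadjusted p under 0.05, 16 were higher and 6 lower, where 10.6% and 10.9% of all genes were. Both tumor values exceeded both normal values in 24 and lay under them in 10, where 29.4% and 27.7% of all genes did. The median difference was 0.30. Enzymes and chaperones of the endoplasmic reticulum, which hydroxylate and fold procollagen, gave 0 of 21 past limma, with 6 higher and 0 lower at an unadjusted p under 0.05 and a median of 0.40. Crtap, a partner of the prolyl 3-hydroxylase, gave 1081 and 1097 in normal ureter and 2325.5 and 2061 in tumor (difference 1.00, SE 0.18, limma adjusted p = 0.0933, n = 2 per group). The prolyl 4-hydroxylase subunits P4hb and P4ha2 and the galactosyltransferase Colgalt1 had differences of 0.73, 0.84 and 0.67 (adjusted p = 0.175, 0.207 and 0.22). Serpinh1, which encodes a collagen-specific chaperone, did not share this lean, with a difference of -0.18. The 4 plasma cell genes had a median difference of 4.93, and the part of plasma cells in the values of this list was not tested.

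Genes that cleave and cross-link collagen outside the cell gave 0 of 11 past limma, with 3 higher and 0 lower at an unadjusted p under 0.05 and a median of -0.03. Among all genes tested 1.43% passed limma, and 10.6% were higher and 10.9% lower at an unadjusted p under 0.05. Pcolce, which speeds removal of the C-propeptide, gave 4087 and 3339 in normal ureter and 20306 and 9832 in tumor (difference 1.93, SE 0.41, limma adjusted p = 0.122, n = 2 per group). Lox, which oxidises lysines to start cross-links, gave 896 and 570.2 against 3464 and 1993 (difference 1.85, SE 0.39, adjusted p = 0.12). Fn1, which encodes fibronectin, and the lysyl oxidase Loxl3 stood at 1.59 and 1.55 (adjusted p = 0.126 and 0.25). Both tumor values exceeded both normal values for these 4 genes alone of the 11 (36.4%), against 29.4% of all genes tested. They were named for their small p-values, so the lack of overlap adds nothing to those values. All 4 were higher on tumor replicate 1 than on tumor replicate 2.

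Fibril-binding proteins gave 1 rise and 13 not past the test among 14, where 0.491% of all genes tested rose. Their median was -0.44 (0.48 for tumor replicate 1, -1.09 for tumor replicate 2). Bgn, the small proteoglycan biglycan, rose from 3933 and 3197 to 19166 and 16769 (difference 2.33, SE 0.21, n = 2 per group, limma adjusted p = 0.0425). Its further probe sets gave 2.59 and 2.51. With the replicate block the limma adjusted p of Bgn was 0.113. Thbs1, a matricellular protein, had a difference of 1.24 (adjusted p = 0.0721), and Tnxb and Aspn, which bind fibrils of loose and dense connective tissue, had -1.65 and -1.63 (adjusted p = 0.0922 and 0.102). Some genes of this list that mark fibroblasts were low on tumor replicate 2. Dcn, the small proteoglycan decorin, gave 39809 and 34038 in normal ureter, 41972 on tumor replicate 1 and 11313 on tumor replicate 2, and Lum had 13140.5, 10036, 11812 and 1390.5 in the same order. The call of Bgn ended without normal replicate 1 or normal replicate 2 (adjusted p = 0.643 and 0.655), with median centring (0.0501), with averaged probe sets (0.0521) and without the intensity trend (0.0638).

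Marker lists of the cell types that can make collagen had medians below 0. The 8 fibroblast genes gave 0 past limma and a median of -0.51, at 0.61 on tumor replicate 1 and -1.53 on tumor replicate 2. Their summed signal was 68925 and 58212 in normal ureter, 75685 on tumor replicate 1 and 24458 on tumor replicate 2. On tumor replicate 2 the list was divided: Dcn, Lum, Dpt, Pi16 and Mfap5 were under the normal mean, at -1.70, -3.03, -3.09, -2.12 and -1.36, and Pdgfra, Pdgfrb and Thy1 were above it, at 0.36, 1.86 and 1.10. The part of fibroblasts in the collagen values was not tested. The 6 activated fibroblast genes gave a median of -0.29, at 0.83 on tumor replicate 1 and -0.24 on tumor replicate 2, and 1 rise, in Inhba. Its mean of 21.5 in normal ureter was under the limit, and it entered the test only through its tumor mean of 882. This list was divided too, with Inhba, Tnc and Cthrc1 at 4.57, 2.785 and 0.52 and Postn, Fap and Acta2 at -1.11, -1.235 and -1.21. Its summed signals were 47920.4 and 39122 in normal ureter against 36056 and 21788 in tumor. Acta2 made up most of the sum in normal ureter, at 35083 and 27665, against 9957 and 18209 in tumor. On tumor replicate 1 Postn was the brightest, at 20500, against 11423 and 10536 in normal ureter and 1254 on tumor replicate 2. Smooth muscle genes had a median of -1.83, with 1 of 6 past the test (Myh11, difference -3.37, limma adjusted p = 0.0402, n = 2 per group) and 0 higher, and the 4 pericyte genes a median of -0.91 with 0 past the test. Urothelial genes had a median of -1.73, with 3 of 10 fallen, and 6 endothelial genes one of -0.24 with 0 past the test. Across all genes tested 0.491% rose and 0.943% fell. None of these sums was used to adjust the collagen values.

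Collagen receptors gave 1 fall and 8 not past the test among 9, where 0.943% of all genes tested fell. Their median was -0.02. Cd36, a scavenger receptor that binds collagen and also takes up fatty acids in fat cells, fell from 23763 and 22338 to 2005 and 1977 (log2 difference -3.52, SE 0.17, limma adjusted p = 0.0369, n = 2 per group). With the replicate block the limma adjusted p of Cd36 was 0.108. All 5 fat genes measured were also lower on both tumor arrays than on both normal arrays, as were 27.7% of all genes tested. The part of fat tissue in the result was not tested. The discoidin receptors, tyrosine kinases switched on by collagen, went opposite ways. Ddr1, the epithelial form, gave 868.5 and 2197 in normal ureter and 5623 and 11405 in tumor (difference 2.52, SE 0.60, adjusted p = 0.138), although its probe sets ranged from -0.14 to 2.52. Ddr2, the stromal form, gave 2952 and 2067 against 1309 and 651 (difference -1.40, SE 0.42, adjusted p = 0.181). Mrc2, which takes up collagen fragments, differed by 2.11 (adjusted p = 0.135). The integrin chain Itga10 stood at -1.41 (adjusted p = 0.158), with its tumor mean of 45.6 under the limit. The call of Cd36 ended without normal replicate 1 or normal replicate 2 (adjusted p = 0.643 and 0.655) and without the intensity trend (0.0603).

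**Figure D4:**
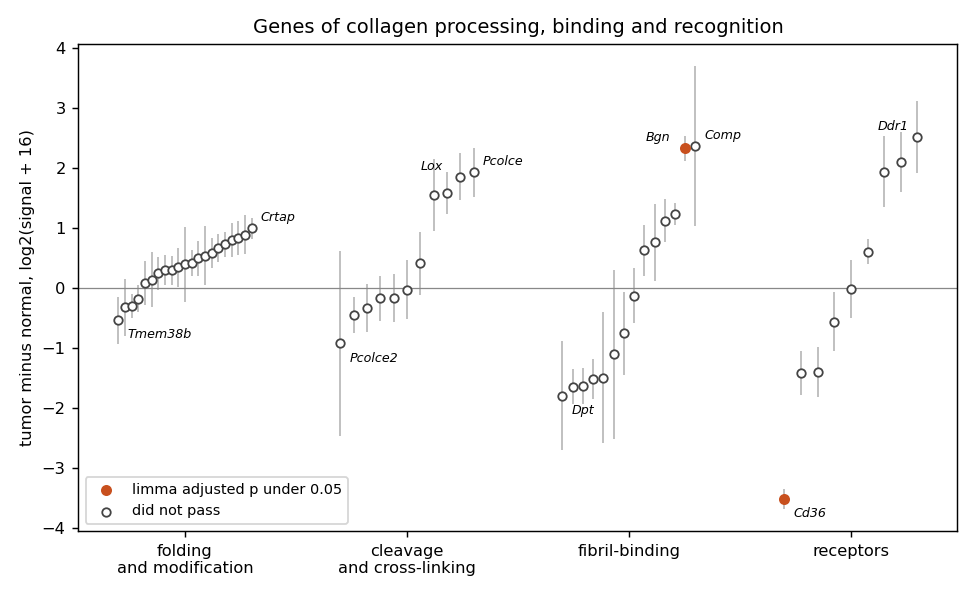
Difference between tumor and normal means on the scale log2(signal + 16) for the 55 genes tested, in 4 lists, sorted within each list; grey bars are the limma standard error (n = 2 per group). Filled orange points passed limma at an adjusted p under 0.05: Bgn at 2.33 and Cd36 at -3.52.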

How the data were processed

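The members and gene lists were chosen with earlier results of these data known. The authors deposited 1 MAS5 intensity for every probe set on a linear scale, per the submitters' processing notes, which give no MAS5 version. These intensities were already scaled, since each array had a mean of 500 once its lowest and highest 2% of values were set aside. Of 45101 probe sets, 64 were controls, 34945 had a single symbol in the platform annotation, 932 had several and 9160 had none; 34741 of the single symbols were found by gene ID in RefSeq (GRCm38.p6) and take its spelling. Signals were taken as log2(signal + 16), a scale on which dim genes change less than they do in signal. A gene was read by its single-gene probe set of highest mean, and levels were not compared between probe sets. The test covered 13046 genes whose mean reached the 40th percentile of the non-control probe sets (a signal of 54.6). It was limma 3.58.1 under R 4.3.3 with eBayes following intensity, two-sided, with 2 residual and 2.11 prior degrees of freedom. Benjamini-Hochberg adjustment ran over all genes tested, with a threshold of 0.05. The fit was also run on simulated data with independent noise for each probe set and array. That noise holds no tissue difference shared by many genes, so the run cannot speak to such differences. An exact permutation test of 2 against 2 cannot go below p = 0.333. Samples are labelled as biological replicates with no animal named, so the p-values describe the spread among these samples only. Basement membrane collagens were types IV, VII, XV, XVII and XVIII. Full values were given by rule for collagens past the threshold, for the 5 smallest p-values and the brightest gene of each group, and for neighbouring pairs; other lists gave their 4 smallest p-values or defining genes. Serpinh1, Ddr2, the fibroblast, activated fibroblast and endothelial genes and the dim genes with values were named after their values were seen. So were the urothelial genes that fell and the other urothelial genes set beside the basal ones. Alternatives were pseudocounts of 1 and 64, quantile and median scaling, no filter and a 60th percentile filter, averaged or separate probe sets, no intensity trend, a replicate block, type IV alone as the basement membrane group and leaving out each array. Figures were drawn with matplotlib 3.10.9.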

Additional observations from a re-analysis of the deposited data

How the results depend on the processing

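Over the 28 collagen genes tested, 268 values under the alternatives that kept all 4 arrays had the direction and the side of the threshold reported, 4 lost the call of Col12a1 and 4 changed sign, in Col4a3 and Col4a5. Genes under an alternative's own signal limit, such as Col13a1, Col20a1 and Col23a1 under the 60th percentile filter, had no value there. The collagen genes past limma went from 1 to 0 with median centring, averaged probe sets, no intensity trend or the replicate block. Col12a1 then had adjusted p = 0.0501, 0.128, 0.0666 and 0.113, and with the replicate block Bgn had 0.113 and Cd36 0.108. The genes past the test among all genes, 187 as reported, were 35 with median centring, 117 with averaged probe sets, 473 with every probe set tested, 2 with no intensity trend and 0 with the replicate block. Among the collagen pathway genes, 2 as reported, they were 1, 1, 6, 0 and 0 in the same order. Median centring moved the median difference of all genes tested from 0.03 to 0.22. The correlation of deviations between arrays of the same replicate number was 0.039 across 13046 genes. It rests on a single contrast in each group, so it cannot show whether equal numbers pair the samples. The differences of Col4a3 turned to 0.091 with a pseudocount of 64, 0.022 with quantile normalization and 0.19 with median centring, and that of Col4a5 to -0.17 with averaged probe sets. The causes of these changes were not tested.

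With each array left out in turn, the count was 0 to 5502 for all genes, 0 to 20 for collagen genes and 0 to 36 for pathway genes. The collagen count was 0 without normal replicate 1 or normal replicate 2, 13 without tumor replicate 1 and 20 without tumor replicate 2. These fits assume that the lone array of a group varies like the pair of the other group. The group medians ran from 0.29 to 1.19 for fibrillar chains, 0.11 to 0.84 for basement membrane chains and -0.008 to 0.98 for the remaining types. Differences that changed sign ran from -0.13 to 0.74 for Col3a1, -0.79 to 0.16 for Col27a1, -0.14 to 1.10 for Col4a1, -1.79 to 1.77 for Col4a3, -2.50 to 1.84 for Col4a4, -0.11 to 0.34 for Col4a5 and -1.15 to 1.23 for Col4a6. They ran from -0.28 to 2.27 for Col18a1, -0.75 to 1.62 for Col7a1, -0.18 to 2.04 for Col6a1, -0.017 to 2.05 for Col6a2, -0.008 to 0.52 for Col6a3 and -0.66 to 0.12 for Col20a1. The number of arrays limits the precision, and signals near the limit for testing carry no detection call here.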
